A study of Mus musculus with 2 samples.

Results

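Vessel-gene-rich spots are small areas of a tissue section in which 4 endothelial transcripts took an unusually large share of the captured RNA. They were selected on those transcripts in spatial transcriptomes (Visium CytAssist, in which probes to each gene are read at barcoded positions of a slide) in 2 libraries of orthotopic mouse pancreatic tumors. Of 5772 spots in the 2 libraries, 4206 were eligible, with at least 10000 UMIs (unique molecular identifiers, one per captured probe molecule) and under 2% of them from the acinar genes Cpa1, Ctrb1, Prss2, Pnlip and Cela2a. Within each library the eligible spots were ranked by the summed level of Pecam1, Cdh5, Kdr and Vwf in counts per 1000000 UMIs (CPM), and the top 5% were taken: 67 of 1349 in the KPC-shZEB1-labelled library and 142 of 2857 in the KPC-shV-labelled library. The lowest 50% of the same ranking, 674 and 1428 spots, served as the comparison.

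Both libraries came from mouse pancreas injected with cells of the KPC line, which derives from a pancreatic tumor of a genetically engineered mouse with Pdx-1-Cre. KPC-shZEB1 cells carried a short hairpin RNA against Zeb1, a transcription factor of the epithelial-mesenchymal program, and KPC-shV cells carried the control vector. The hairpin was in the injected cells only, so vessels, immune cells and stroma of the host did not carry it. The labels give 2 tumors per group and do not say which tumor a library covers. They name neither the age and strain of the mice nor a drug. The study's methods list several strains of young mice for this model, and its text takes the sections from the gemcitabine-treated tumors of its single-cell assay, a treatment both groups would then share. There was 1 library per group, so no difference between groups or between sets of spots was tested: spots of 1 section are not replicates, and every interval below is a 95% exact interval for counting error alone. A spot can hold several cells of different types, and a higher share of endothelial UMIs cannot be told apart from fewer UMIs of other cells.

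Endothelial cells line blood and lymphatic vessels. VEGF ligands act on them through the receptors Flt1, Kdr and Flt4, angiopoietins act through Tie1 and Tek, and Notch signaling through Dll4 restrains sprouting behind the tip cell that leads a new branch. Pericytes and smooth muscle cells wrap the tube, and both layers share a basement membrane of type IV collagen, laminins and nidogens. Pecam1 and Cdh5 encode adhesion proteins of endothelial junctions, Kdr encodes VEGF receptor 2, and Vwf encodes the clotting protein that endothelial cells store and release. In the mm10 coordinates of GENCODE (GRCm38) the genes lie at chr11:106654217-106750628 for Pecam1, chr8:104101625-104144511 for Cdh5, chr5:75932827-75978458 for Kdr and chr6:125546774-125686679 for Vwf.

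Endothelial promoters are known to be read by ETS factors such as Erg and Fli1, whose DNA core is GGAA, so the region before the start of Kdr is shown as the regulatory sequence of a gene that selected the spots. The 250 bases upstream, at chr5:75978456-75978705 on the minus strand (RefSeq, GRCm38.p6), are given 5′ to 3′ with the match in capitals.
Kdr: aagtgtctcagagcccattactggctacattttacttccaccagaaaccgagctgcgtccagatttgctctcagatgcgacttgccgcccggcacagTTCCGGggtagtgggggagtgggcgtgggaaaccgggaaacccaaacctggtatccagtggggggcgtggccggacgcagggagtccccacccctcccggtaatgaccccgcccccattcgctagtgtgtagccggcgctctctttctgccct
The letters CCGGAA and CAGGAA were searched on both strands, and a window counts once however many matches it held. The Kdr window held 1 match, CCGGAA read on the opposite strand as TTCCGG. Of 32851 windows of this length before all RefSeq starts in the table, 12.03% held CCGGAA and 25.7% held CAGGAA. The 18 windows of 14 other endothelial genes with an entry held CCGGAA in 1 case (5.56%), CAGGAA in 10 (55.6%) and either motif in 11 (61.1%, against 35.1% of all windows). These matches describe letters and were not tested as sites.

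The selected spots held 20 UMIs of the 4 genes at the median in the KPC-shZEB1-labelled library (from 4 to 42) and 23 in the KPC-shV-labelled library (from 5 to 92). Their summed level ran from 356 CPM through a median of 517 to 1427 CPM in the first and from 408 through 527 to 1463 CPM in the second, while no spot of the lowest 50% sets passed 49.4 and 55.6 CPM. The ranking was close at its threshold: the last spots inside had 355.9 and 408.4 CPM and the first outside 355.2 and 405.3 CPM. These values chose the spots and describe them only. Members were shallower than the comparison spots, with a median of 34731 against 61950 UMIs in the KPC-shZEB1-labelled library and 41520 against 60671 in the KPC-shV-labelled library. The part of depth in the results was not tested. The libraries shared 1718 barcodes, which are slide positions, and no member barcode was shared.

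Reading each of the 4 genes in spots chosen by the other 3 gave a measure that did not use its own counts. Pecam1 was then at 171 against 10.0 CPM in the KPC-shZEB1-labelled library and 122 against 10.5 CPM in the KPC-shV-labelled library. Over the 4 genes these log2 ratios ran from 3.56 to 4.20 and from 3.37 to 4.31. Splitting the UMIs of every spot at random gave the same kind of reading: the part that chose the spots had log2 ratios of 5.35 and 5.20, and the untouched part had 3.94 and 3.78. All 4 genes were detected in 50 of 67 and in 107 of 142 members. Of the UMIs of the 4 genes in members, Pecam1 made up 35.2% in the KPC-shZEB1-labelled library and 25.5% in the KPC-shV-labelled library. Cdh5 made up 22.7% and 37.9%, Kdr 17.0% and 26.6%, and Vwf 25.0% and 10.0%. These genes chose the spots, so the shares describe the members and support no difference between the libraries.

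The knocked-down gene was read first as a check of the labels. Zeb1 stood at 30.2 CPM (23.8 to 37.8) in the members labelled KPC-shZEB1 and 29.8 CPM (25.6 to 34.5) in those labelled KPC-shV, a log2 difference of 0.02. In the lowest 50% sets, which are rich in epithelial genes, it stood at 12.4 and 9.29 CPM. Over the eligible spots it stood at 15.3 (14.5 to 16.2) and 12.7 (12.1 to 13.2) CPM. Over all spots, which include 858 and 305 set aside for acinar UMIs, it stood at 10.8 and 12.4 CPM. The lowest 50% sets and the eligible spots thus ran against the direction of the labels, and all spots ran with it. Host cells carry Zeb1 unaltered and a spot mixes them with tumor cells, so these values do not measure the knockdown in tumor cells. Directions between the libraries below rest on the labels.

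Genes that define endothelium but had no part in the rule were the first comparison. The summed level of the 24 other endothelial genes was 2532 CPM in the members labelled KPC-shZEB1 against 342 CPM in the lowest 50%, a log2 ratio of 2.89 (2.85 to 2.93), and 2708 against 298 CPM in the KPC-shV-labelled library, a log2 ratio of 3.18 (3.15 to 3.21). Per spot the members labelled KPC-shZEB1 ran from 1011 through 2358 to 6099 CPM and their lowest 50% from 45.5 through 320 to 1769 CPM. In the KPC-shV-labelled library members ran from 1150 through 2646 to 6351 CPM and the lowest 50% from 0 through 263 to 1624 CPM. The extremes of members and comparison spots overlapped in both libraries, but the lowest member lay above the comparison median in each. Members of a list were counted in 2 ways. The count chosen first took genes with at least 20 CPM in either set of spots, and 20 of 22 in the first library and 21 of 21 in the second were at least 2-fold higher, against 14.3% of 8785 genes and 12.6% of 8624 genes. A gene that reached 20 CPM only in the vessel-gene-rich spots had to be higher there, so these counts support nothing. The count added after seeing the data took every gene of a list with a UMI in both sets, with no level filter, and is the one given for lists below. By it 22 of 24 and 24 of 24 other endothelial genes were at least 2-fold higher, against 22.9% of 18703 genes and 16.5% of 19160 genes. Their median log2 ratios were 3.53 and 3.48, against 0.13 and 0.07 over those same genes.

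**Figure D1:**
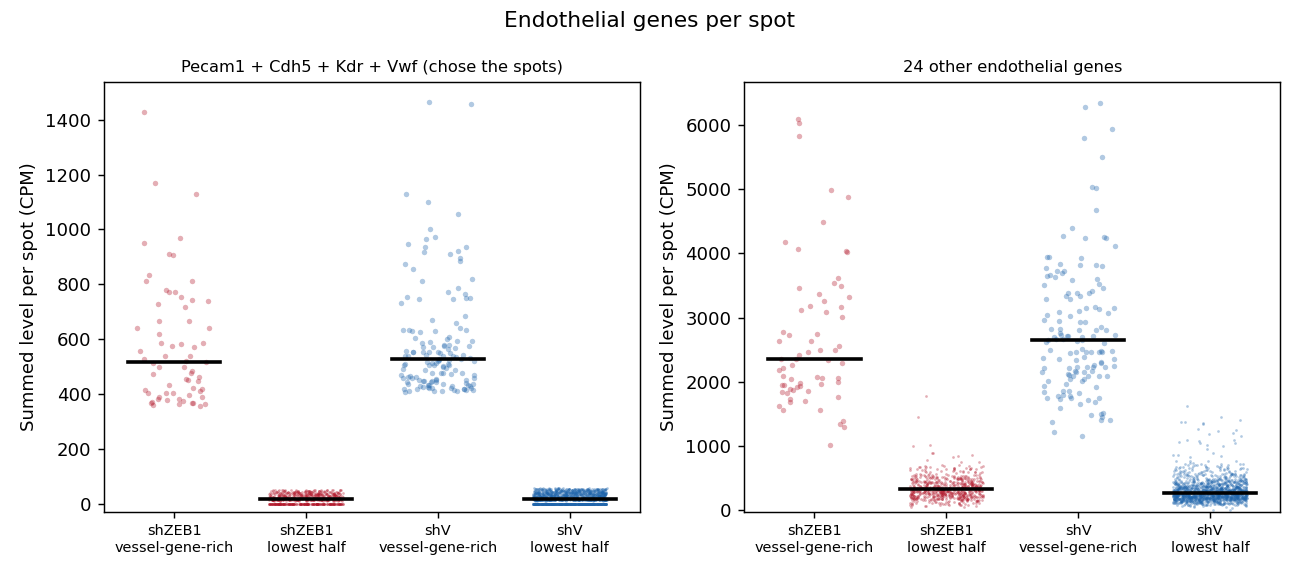
Summed level per spot, in CPM, of the 4 genes that chose the spots (left) and of 24 other endothelial genes (right) in vessel-gene-rich spots and the lowest 50% of each library; each point is a spot and black bars are medians. Members center on 2358 and 2646 CPM of the other endothelial genes, against 320 and 263 CPM in the lowest 50% sets.

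Plvap, which encodes the diaphragm protein of fenestrated endothelium, was at 651 against 27.3 CPM in the KPC-shZEB1-labelled library and 719 against 31.5 CPM in the KPC-shV-labelled library. It had a UMI in every member of both. Mmrn2, an endothelial matrix protein, was at 40.2 against 0.985 CPM and 34.4 against 1.44 CPM, log2 ratios of 5.35 (4.82 to 5.90) and 4.58 (4.25 to 4.92). Clec14a, an endothelial lectin, had log2 ratios of 4.55 and 4.38. Eng, the TGF-beta co-receptor endoglin, was at 434 against 45.7 CPM and 390 against 40.3 CPM. The claudin of endothelial junctions, Cldn5, stood at 62.0 against 2.28 CPM and 39.7 against 3.63 CPM. Flt1 and Ecscr were the 2 of the 24 genes that fell short of 2-fold in the KPC-shZEB1-labelled library, with log2 ratios of 0.57 and 0.08 there and 1.17 and 1.13 in the other. Neither gene was low in the lowest 50%, at 32.4 and 99.4 CPM there.

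Across all genes, 789 of 8224 with enough level in both libraries (9.59%) were at least 2-fold higher in members of both, and 348 (4.23%) were at least 2-fold lower in both. Ranked by the smaller of the 2 ratios, the top 15 were Mmrn2, Madcam1, Plvap, Clec14a, Sema3g, Cd34, Grrp1, Fabp4, Hbb-bs, Ehd3, Aplnr, Rasip1, Fmod, Sox18 and Ushbp1. Cd34 is the sialomucin of endothelium and progenitors, Aplnr is the apelin receptor, Rasip1 regulates vessel lumen formation and Hbb-bs is a beta globin of red blood cells. Fabp4, a fatty acid binding protein of capillaries and fat cells, was at 309 against 8.35 CPM in the KPC-shZEB1-labelled library, with up to 4724 CPM in 1 spot, and at 264 against 14.4 CPM in the KPC-shV-labelled library. The 10 lowest in both were Egln3, Car9, Muc4, Ak4, Ankrd37, Rnf128, Elf3, Muc20, Ero1l and Vldlr. They include the HIF target Car9, an acid-base enzyme of hypoxic cells, at 7.95 against 54.4 CPM and 17.6 against 114 CPM, and the membrane mucin Muc4, at 9.54 against 140 CPM and 20.9 against 118 CPM.

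Among better counted genes, with at least 100 UMIs in each set, the median gene had log2 ratios of -0.0983 and -0.0622 between members and the lowest 50%. This differs in sign from the 0.13 and 0.07 over all genes with a UMI in both sets, so the middle of the ratios depended on the genes taken. Genes at least 2-fold lower were 14.9% and 5.47% of those past 20 CPM in the 2 libraries, and 11.6% and 5.79% with no level filter. All 5 epithelial genes (Krt19, Cdh1, Krt7, Krt8 and Epcam) were at least 2-fold lower in members of both. Their sum was 842 against 7589 CPM in the first library and 2979 against 7360 CPM in the second, with log2 ratios of -3.17 (-3.23 to -3.11) and -1.30 (-1.33 to -1.28). Of 7 genes of the hypoxia response, 5 and 7 were at least 2-fold lower, and Egln3, the oxygen-sensing hydroxylase that HIF induces, was at 37.0 against 312 CPM and 66.6 against 610 CPM. The 4 proliferation genes were at least 2-fold lower in the members labelled KPC-shZEB1 and none was in those labelled KPC-shV, where their sum was 718 against 866 CPM. Epithelium and vessel markers therefore ran in opposite directions over spots, and the part of tumor cell content in the other results was not tested.

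**Figure D2:**
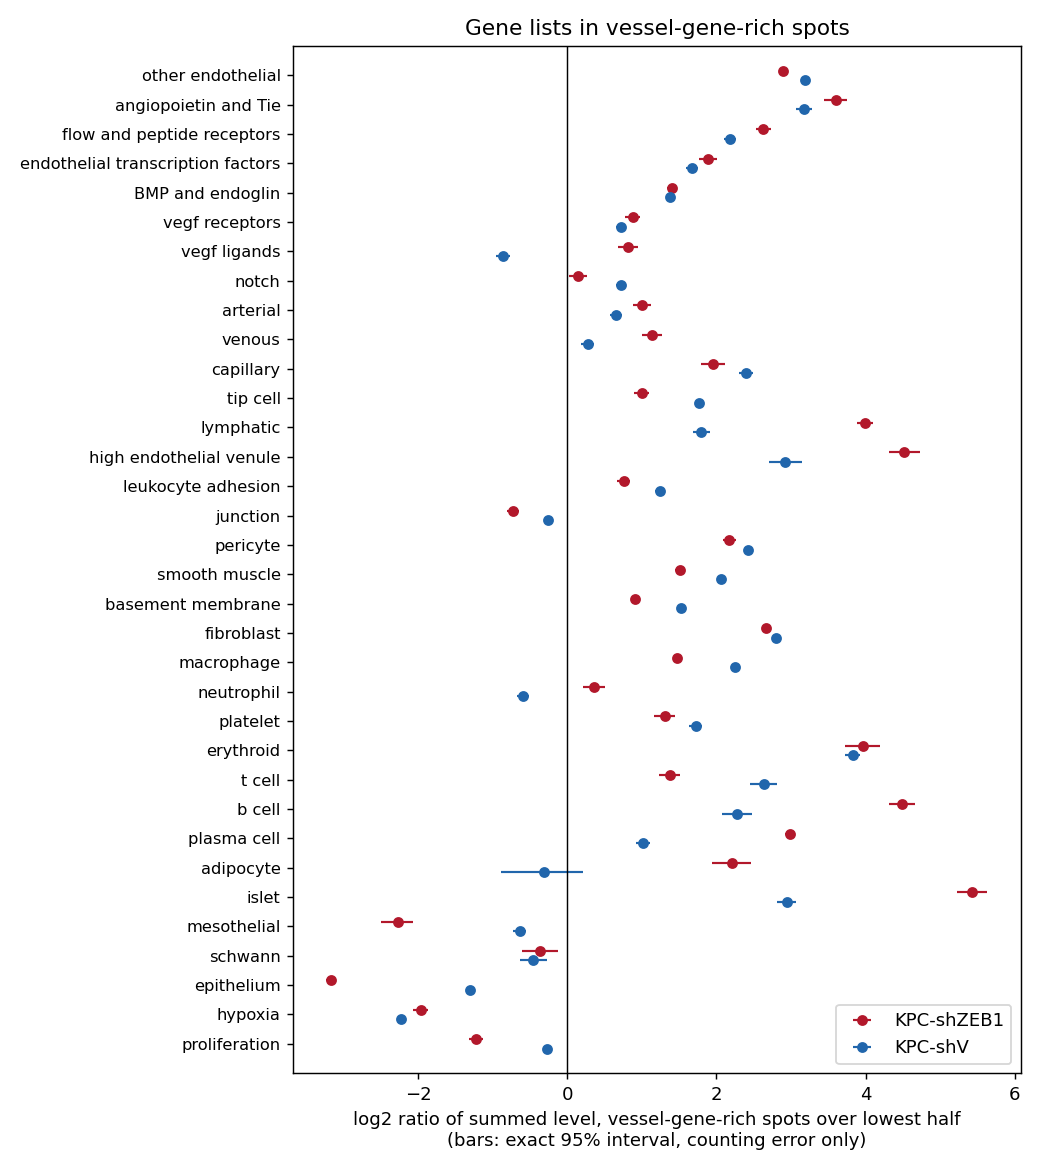
Log2 ratio of the summed level of each gene list in vessel-gene-rich spots over the lowest 50%, for the KPC-shZEB1-labelled library (red) and KPC-shV (blue); bars are exact 95% intervals for counting error. Endothelial, perivascular, fibroblast and red blood cell lists lie right of 0 in both libraries, epithelium and hypoxia lie left of 0, and VEGF ligands, neutrophil and adipocyte genes lie on opposite sides. The adipocyte value labelled KPC-shZEB1 is -0.88 among spots of 20000 to 50000 UMIs.

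The VEGF ligands did not move together. Vegfa, the main hypoxia-induced ligand, was lower in members, at 30.6 against 49.9 CPM in the KPC-shZEB1-labelled library and 63.6 against 223 CPM in the KPC-shV-labelled library. Pgf, the placental growth factor that binds Flt1, was lower too, at 2.39 against 5.32 CPM and 7.58 against 27.0 CPM. The ligands of Flt4 were higher: Vegfd stood at 107 against 11.2 CPM and 28.0 against 4.19 CPM, and Vegfc at 40.6 against 24.8 CPM and 35.3 against 9.29 CPM. The sum of the 5 ligands had log2 ratios of 0.81 (0.68 to 0.94) and -0.86 (-0.96 to -0.77). Among the receptors apart from Kdr, Flt4 had log2 ratios of 4.58 (4.24 to 4.93) and 2.87 (2.57 to 3.17), the co-receptor Nrp1 1.86 and 1.65, and the co-receptor Nrp2 0.28 and 0.19.

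The angiopoietin and Tie genes were higher in members, with all 6 of the list at least 2-fold higher in both libraries, against 22.9% and 16.5% of all genes. Of these, 4 and 3 reached 20 CPM in either set of spots. Tek, the angiopoietin receptor, was at 29.0 against 1.48 CPM in the KPC-shZEB1-labelled library, with log2 ratios of 4.30 and 3.45 in the 2 libraries, and Ptprb, the phosphatase that holds Tek in check, at 140 against 6.76 CPM and 84.2 against 6.04 CPM. Angpt2, the ligand that loosens vessels, was at 25.9 against 5.28 CPM and 57.0 against 6.78 CPM. Receptors for sphingosine phosphate, apelin and adrenomedullin were higher as well. S1pr1 was at 86.3 against 8.98 CPM and 59.99 against 5.52 CPM, Aplnr at 39.8 against 2.21 CPM and 45.8 against 2.71 CPM, and Ramp2 at 175 against 13.4 CPM and 110 against 8.44 CPM. Adm, the hypoxia-induced ligand of the last receptor, was at 11.1 against 9.48 CPM and 8.41 against 34.1 CPM. Of 11 transcription factors of endothelium, 10 and 9 were at least 2-fold higher, among them Erg, Fli1, Sox18 and Lyl1 in both libraries, and Klf2, which shear stress induces, was at 85.5 against 26.9 CPM in the KPC-shZEB1-labelled library and 46.3 against 36.3 CPM in the KPC-shV-labelled library. The ALK1 receptor Acvrl1 was at 118 against 19.0 CPM and 82.7 against 15.4 CPM. Id1, a target of BMP signaling, was at 42.6 against 85.3 CPM in the first library and 150 against 108 CPM in the second.

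Genes of vessel types were read next. Arterial Gja4, a connexin, was at 45.3 against 3.94 CPM and 36.1 against 3.64 CPM, and Sema3g, a semaphorin of arterial endothelium, at 24.3 against 0.985 CPM and 21.3 against 1.08 CPM. Selp, the P-selectin of venules and platelets, was at 52.1 against 2.44 CPM and 48.0 against 5.16 CPM. Efnb2 and Ephb4, the arterial and venous partners of ephrin signaling, which epithelium also expresses, were not higher in members of either library, with log2 ratios of -0.90 and -0.13 for Efnb2 and -0.37 and -0.52 for Ephb4. Of 7 junction genes, 4 and 3 were at least 2-fold higher, against 22.9% and 16.5% of all genes, and 3 and 1 at least 2-fold lower, against 11.6% and 5.79%. Cldn5, Esam and Jam3 were higher in both libraries, and Jam2 had log2 ratios of 2.10 and 0.22. Of the junction genes that epithelium also expresses, Ocln was at least 2-fold lower in both, F11r had log2 ratios of -1.37 and -0.54 and Tjp1 -1.15 and -0.60.

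Perivascular genes accompanied the endothelial ones. The 10 pericyte genes summed to 521 against 116 CPM in the KPC-shZEB1-labelled library and 704 against 131 CPM in the KPC-shV-labelled library, and 8 of 10 were at least 2-fold higher in each, against 22.9% and 16.5% of all genes. Rgs5, a pericyte regulator of G proteins, stood at 181 against 11.5 CPM and 201 against 15.5 CPM. Kcnj8, a potassium channel of pericytes, stood at 54.1 against 3.42 CPM and 76.0 against 6.91 CPM. Smooth muscle Myh11 was at 37.8 against 1.45 CPM and 28.7 against 3.41 CPM. Within the members, the rank correlation of the other endothelial genes with the pericyte genes was 0.46 over 67 spots and 0.43 over 142, and with the smooth muscle genes 0.08 and 0.29. These coefficients describe spots that share a section and a library, and depth moved with the first list at -0.36 and -0.23.

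The basement membrane list summed to 2693 against 1433 CPM in the KPC-shZEB1-labelled library, where 6 of 12 genes were at least 2-fold higher and 1 lower, and to 5020 against 1750 CPM in the KPC-shV-labelled library, where 7 were higher and 1 lower. Over all genes 22.9% and 16.5% were higher and 11.6% and 5.79% lower. Col4a1, a chain of type IV collagen, was at 676 against 216 CPM and 1605 against 278 CPM. Lama4, the laminin chain of vessel walls, was at 160 against 35.4 CPM and 150 against 16.4 CPM. The lower gene in both was Lama5, a laminin chain of epithelial and vascular membranes, at 54.9 against 197 CPM and 144 against 314 CPM. Per spot the list ran from 1076 through 2599 to 5625 CPM in the members labelled KPC-shZEB1 and from 1282 through 5371 to 10964 CPM in those labelled KPC-shV.

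The same spots held genes of other cells. The 8 fibroblast genes summed to 25580 against 4028 CPM in the KPC-shZEB1-labelled library and 19500 against 2810 CPM in the KPC-shV-labelled library, and all 8 were at least 2-fold higher in both, against 22.9% and 16.5% of all genes. The 7 macrophage genes summed to 4860 against 1756 CPM and 4412 against 930 CPM, with 6 and 7 at least 2-fold higher against the same shares, and Mrc1, the mannose receptor of tissue macrophages, at 552 against 96.1 CPM and 526 against 59.5 CPM. B cell genes had log2 ratios of 4.49 and 2.28, plasma cell genes 2.98 and 1.01, and T cell genes 1.37 and 2.63. Red blood cell genes summed to 113 against 7.25 CPM and 277 against 19.5 CPM. Of the 5 platelet genes, 4 and 3 were at least 2-fold higher, again against 22.9% and 16.5%. Pf4, which macrophages also express, was at 162 against 61.6 CPM and 194 against 49.8 CPM. The receptor genes Itga2b and Gp9 were at least 2-fold higher in both libraries and Gp1ba in the KPC-shZEB1-labelled library, all at levels under 20 CPM, and Ppbp, a platelet chemokine, had log2 ratios of -0.54 and 0.22. Acinar transcripts were higher in members in spite of the 2% limit, at 4106 against 907 CPM and 566 against 94.1 CPM, although the median spot labelled KPC-shV had 60.1 against 48.6 CPM. Islet genes stood at 284 against 6.59 CPM and 121 against 15.7 CPM, but 66.9% and 58.3% of those UMIs came from 1 spot in each library, and the log2 ratio labelled KPC-shV turned to -0.33 without the 5% highest spots. Schwann cell genes had log2 ratios of -0.36 and -0.46, and mesothelial genes -2.28 and -0.64. The part of these cells in the endothelial values was not tested.

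**Figure D3:**
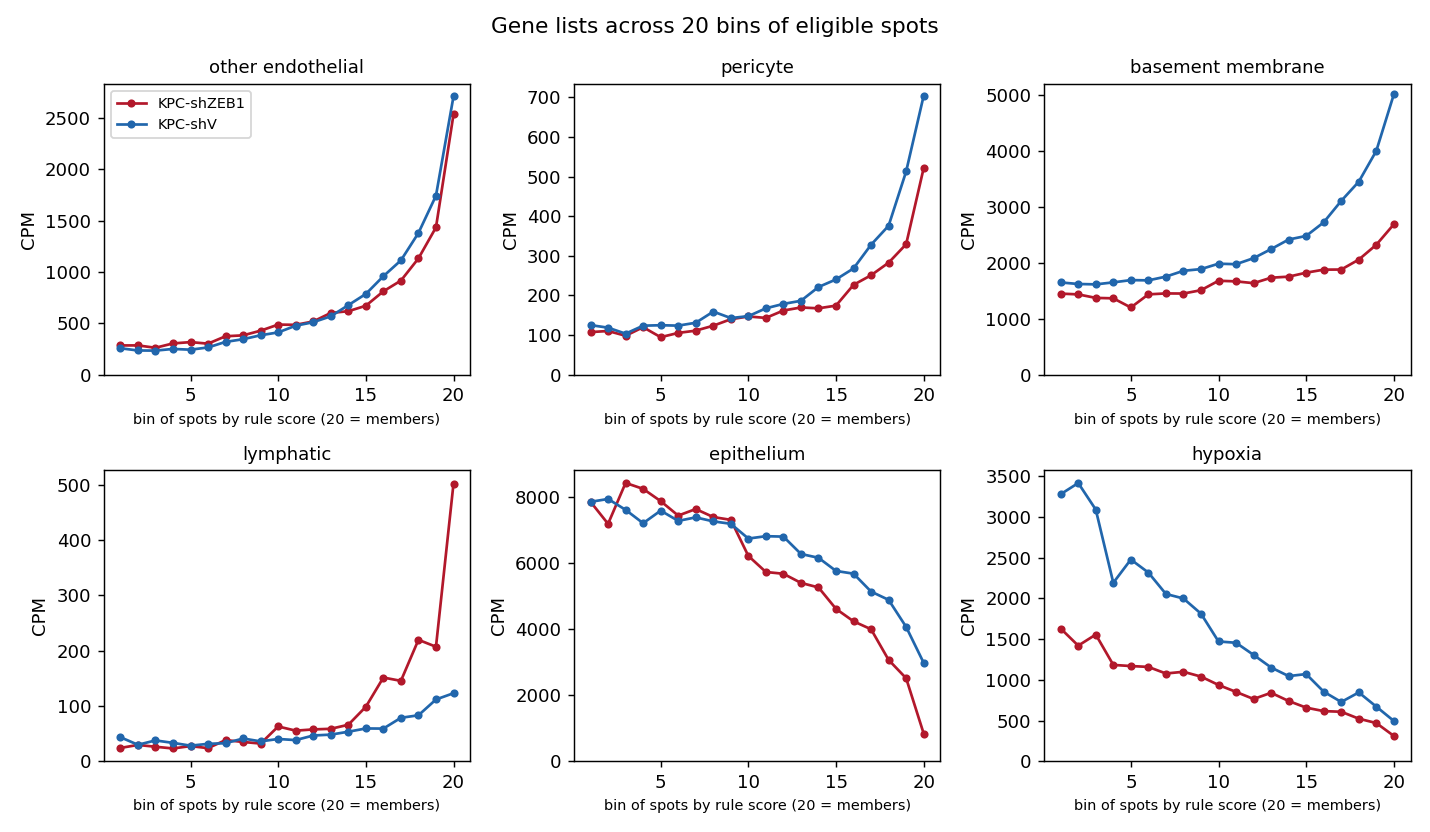
Level in CPM of 6 gene lists over 20 equal bins of eligible spots ordered by the summed level of Pecam1, Cdh5, Kdr and Vwf, the last bin being the vessel-gene-rich spots; red is the KPC-shZEB1-labelled library and blue KPC-shV. Other endothelial genes reach 1433 and 1742 CPM in bin 19 and 2532 and 2708 CPM in bin 20, while epithelial genes are at 842 and 2979 CPM.

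Across the 20 bins of the ranking the levels differed by degrees. In the KPC-shZEB1-labelled library the other endothelial genes stood at 285 CPM in bin 1, 487 in bin 10 and 1433 in bin 19, and pericyte genes at 108, 147 and 329 CPM. In the KPC-shV-labelled library the endothelial values were 257, 411 and 1742 CPM and the pericyte values 125, 148 and 513 CPM. Lymphatic genes went from 207 CPM in bin 19 to 502 CPM among the members labelled KPC-shZEB1, and from 112 to 123 CPM in the KPC-shV-labelled library. Spots just under the threshold were thus vascular as well, and the members are the upper end of a range.

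The libraries were then set against each other. The sum of the other endothelial genes had a log2 difference of -0.10 (-0.14 to -0.06) for the KPC-shZEB1-labelled library over KPC-shV, whose sign was not stable. It was -0.75 among spots with at least 1000 CPM of epithelial genes and -0.27 without spots rich in B cell genes, but 0.03 when counts were scaled by the median ratio over genes and 0.22 among spots of 20000 to 50000 UMIs. The median gene with at least 100 UMIs in each set stood at -0.126 in this comparison, and at -0.05 over all genes with a UMI in both. Over all genes, 4.48% of 8620 were at least 2-fold higher in the members labelled KPC-shZEB1 and 6.06% at least 2-fold lower, and with no level filter 13.1% and 8.70% of 18628. In the other endothelial list these were 1 gene (Calcrl) and 2 genes (Emcn and Flt1) of 24.

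Lymphatic genes set the members apart. All 6 of the list were at least 2-fold higher in the members labelled KPC-shZEB1, against 13.1% of all genes, and the list summed to 502 CPM there (57.6 through 364 to 1596 per spot) and 123 CPM in those labelled KPC-shV (0 through 121 to 564 per spot). The groups overlapped, and the log2 difference was 2.03. In the lowest 50% sets it was -0.17. Pdpn, also a gene of fibroblasts, gave 45.2% and 69.9% of the list's UMIs in members, at 227 against 86.2 CPM. Without it, a reading added after seeing the data, the other 5 genes summed to 275 and 37.1 CPM, a log2 difference of 2.89. Prox1 (chr1:190118035-190170714), the master regulator of lymphatic identity, was at 97.0 CPM with a UMI in 36 of 67 members, against 6.26 CPM with a UMI in 29 of 142. Mmrn1, a lymphatic matrix protein, was at 58.5 against 1.32 CPM, and Reln, a secreted glycoprotein of lymphatic endothelium, at 41.8 against 2.47 CPM. Flt4, the receptor for Vegfc and Vegfd, was at 69.2 against 24.2 CPM, and its ligand Vegfd at 107 against 28.0 CPM. After thinning each spot to 10000 UMIs, Prox1 was seen in 32.8% (21.8 to 45.4) of the members labelled KPC-shZEB1 and 3.52% (1.15 to 8.03) of those labelled KPC-shV, with 1.93% and 2.52% in the lowest 50% sets.

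High endothelial venules admit lymphocytes to lymphoid tissue. Their genes summed to 187 CPM in the members labelled KPC-shZEB1 and 43.5 CPM in those labelled KPC-shV, a log2 difference of 2.11. Of the 4 genes, Glycam1 and Madcam1 were at least 2-fold higher, and Chst4 and Fut7, enzymes that build L-selectin ligands, were not, with log2 differences of 0.49 (-1.09 to 1.96) and 0.18 (-1.24 to 1.47) at levels under 4 CPM. The median of the list was 0.97, and 13.1% of all genes were at least 2-fold higher. Glycam1, a ligand for L-selectin, was at 91.5 CPM in 32 of 67 members, with up to 1076 CPM in 1 spot, against 5.60 CPM in 14 of 142. Madcam1, the mucosal addressin, was at 89.9 against 33.1 CPM. Ackr1, the atypical chemokine receptor of venules, was at 50.5 against 10.4 CPM with log2 ratios over the lowest 50% of 4.98 (4.55 to 5.43) and 2.64 (2.18 to 3.08). Vwf, in spots chosen by the other 3 genes of the rule, was at 107 against 50.8 CPM. The adhesion genes Selp, Icam1 and Vcam1 differed by less than 2-fold.

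**Figure D4:**
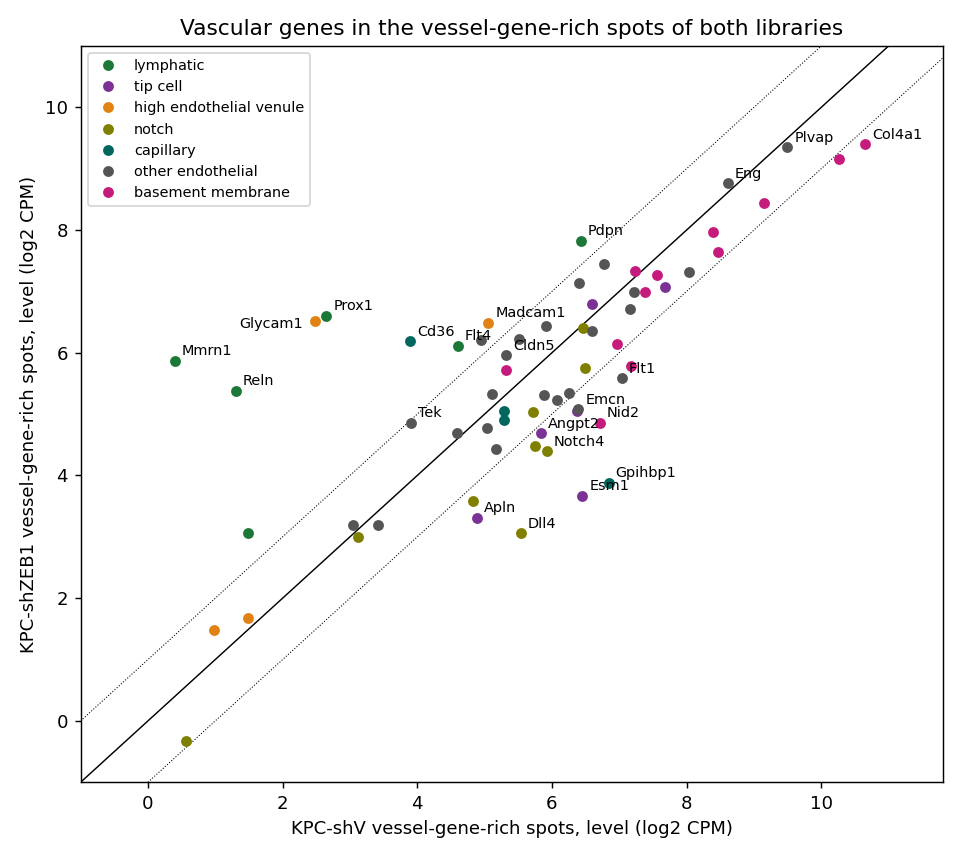
Level in log2 CPM of vascular genes in the vessel-gene-rich spots of the KPC-shV-labelled library (x axis) and KPC-shZEB1 (y axis), colored by gene list; the solid line marks equal levels and the dotted lines 2-fold differences. The 6 lymphatic genes and the venule genes Glycam1 and Madcam1 lie above the upper line, Esm1, Dll4, Gpihbp1 and Nid2 lie below the lower one, and Plvap and Eng lie near equality.

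Genes of sprouting vessels differed the other way. The tip cell list summed to 327 CPM in the members labelled KPC-shZEB1 (64.9 through 293 to 753 per spot) and 558 CPM in those labelled KPC-shV (0 through 471 to 1650 per spot). Both groups overlapped, and the lowest 50% sets were alike at 164 CPM each. Of the 6 genes, 4 were at least 2-fold lower in the members labelled KPC-shZEB1, against 8.70% of all genes. Esm1 (chr13:113209659-113218098), the VEGF-induced proteoglycan of tip cells, was at 12.7 against 87.2 CPM, a log2 difference of -2.78 (-3.34 to -2.26), and thinning to 10000 UMIs left it in 11.9% (5.30 to 22.2) and 41.5% (33.3 to 50.1) of members, with 4.45% and 5.46% in the lowest 50% sets. Apln, the ligand of Aplnr, was at 9.94 against 29.5 CPM, Angpt2 at 25.9 against 57.0 CPM and Unc5b, a netrin receptor, at 33.0 against 82.7 CPM. Unc5b did not go with the vessel genes over the lowest 50%. It was at least 2-fold lower in members of the KPC-shZEB1-labelled library and differed by less than 2-fold in the other. Plxnd1 was at 135 against 205 CPM, and Cxcr4, which leukocytes also express, at 111 against 96.2 CPM. Of 9 Notch genes, 4 were at least 2-fold lower in the members labelled KPC-shZEB1, against 8.70% of all genes. Dll4 was at 8.35 against 46.3 CPM, Notch4, the endothelial receptor, at 21.1 against 60.6 CPM, and the target Hey1 at 22.3 against 53.6 CPM. Dll4 differed in the comparison spots too, at 6.78 and 28.3 CPM. The remaining gene of the 4 was Jag2. Over the lowest 50%, Notch4 and Hey1 were at least 2-fold higher in members of both libraries, and Dll4 in neither. Jag2 was at least 2-fold lower in members of the KPC-shZEB1-labelled library and differed by less than 2-fold in the other.

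Capillary genes disagreed among themselves. Gpihbp1, which carries lipoprotein lipase across capillary endothelium, was at 14.7 CPM in the members labelled KPC-shZEB1 and 115 CPM in those labelled KPC-shV, while Cd36, a fatty acid receptor also of fat cells and macrophages, was at 72.8 and 14.8 CPM. Emcn, the endothelial sialomucin endomucin, was at 33.8 and 83.9 CPM, Flt1 at 48.1 and 131 CPM. In the vessel wall, Col4a1 was at 676 and 1605 CPM, its partner Col4a2 at 570 and 1235 CPM and the nidogen Nid2 at 29.0 and 105 CPM. Of 12 basement membrane genes, 4 were at least 2-fold lower in the members labelled KPC-shZEB1 and none higher, against 8.70% and 13.1% of all genes. Of 10 pericyte genes, 3 (Mcam, Cspg4 and Ndufa4l2) were at least 2-fold lower, none was higher and the other 7 differed by less. Mcam was at 31.4 against 75.6 CPM and Rgs5 at 181 and 201 CPM.

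**Figure D5:**
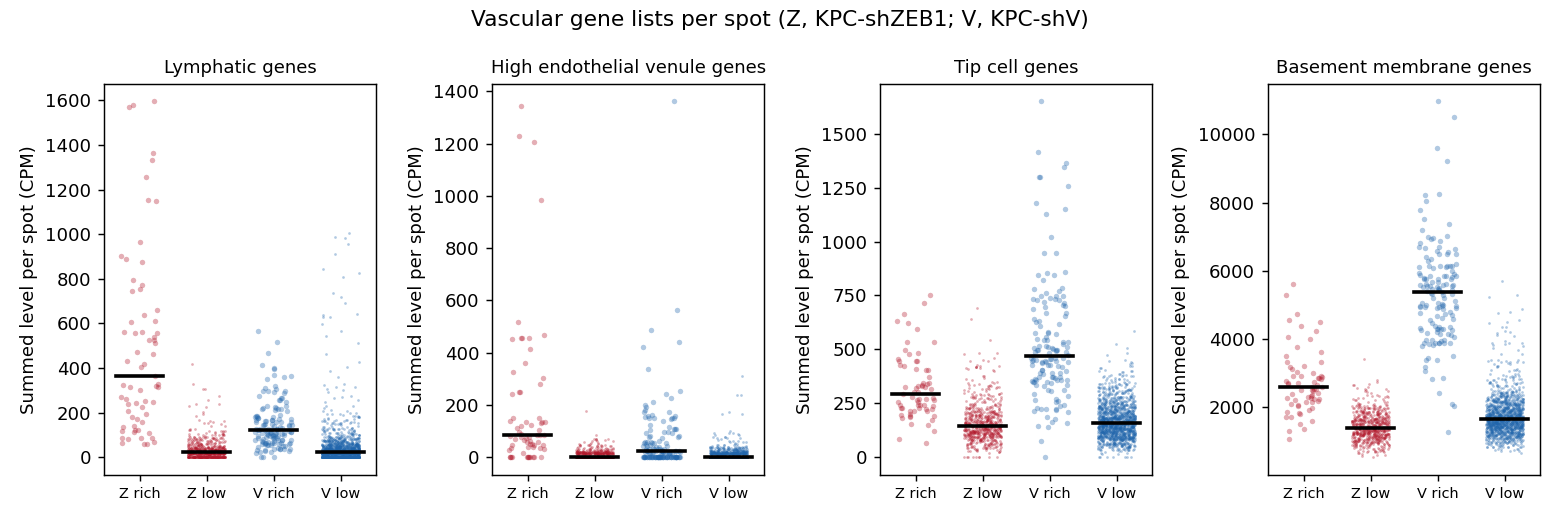
Summed level per spot in CPM of lymphatic, high endothelial venule, tip cell and basement membrane genes in vessel-gene-rich spots (rich) and the lowest 50% (low) of each library (Z, KPC-shZEB1, and V, KPC-shV); points are spots and black bars medians. Medians of members labelled KPC-shZEB1 and KPC-shV are 364 and 121 CPM for lymphatic genes and 2599 and 5371 CPM for basement membrane genes.

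What surrounded the vessels differed between the libraries as well. The 5 epithelial genes summed to 842 CPM in the members labelled KPC-shZEB1 and 2979 CPM in those labelled KPC-shV, although the lowest 50% sets were alike at 7589 and 7360 CPM. Acinar genes, which also set the limit on eligible spots, summed to 4106 and 566 CPM in members, a log2 difference of 2.86. In the lowest 50% sets they summed to 907 and 94.1 CPM. All 5 were at least 2-fold higher in the members labelled KPC-shZEB1, against 13.1% of 18628 genes. The 5 adipocyte genes, none of which reached 20 CPM, summed to 62.0 and 5.11 CPM, a log2 difference of 3.60, with no UMI in the median member of either library. Of these, 4 were at least 2-fold higher in the members labelled KPC-shZEB1, against 13.1% of all genes, and Lep was not. Among spots under 0.5% acinar UMIs the log2 differences were 1.97 for the lymphatic and 2.09 for the venule list. The median member held 0.285% and 0.00601% acinar UMIs before that limit, so it need not make the libraries equal in acinar content. The parts of adipocytes and of acinar tissue in these log2 differences were not tested. Taking 1000 CPM of the epithelial genes as a mark, 16 of 67 and 107 of 142 members lay at or above it. Members labelled KPC-shZEB1 thus lay mostly under this mark of epithelial genes and those labelled KPC-shV mostly at or above it. Among the members at or above the mark, lymphatic genes were at 470 and 108 CPM (268 and 35.3 CPM without Pdpn), Prox1 at 128 and 4.90 CPM, Esm1 at 10.9 and 88.1 CPM, Gpihbp1 at 16.3 and 118 CPM and Col4a1 at 501 and 1504 CPM. Among those below it the values were 515 and 207 CPM (278 and 46.7 CPM without Pdpn), 84.3 and 13.5 CPM, 13.5 and 82.1 CPM, 14.1 and 94.5 CPM, and 748 and 2138 CPM. The direction was the same on both sides of the mark for these genes, and the ratios of the libraries for lymphatic genes and Prox1 were smaller below it. The part of tumor content in them was not tested. With the ranking repeated among spots at or above it, 57 and 135 spots were chosen, and the log2 differences were 1.12 for the lymphatic list, 3.71 for Prox1, -2.63 for Esm1 and -1.02 for the basement membrane list, but the other endothelial genes then stood at -0.75.

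Lymphocyte genes were higher in the members labelled KPC-shZEB1. B cell genes summed to 261 against 46.5 CPM, plasma cell genes to 1295 against 197 CPM and T cell genes to 187 against 62.3 CPM, and the log2 differences between the comparison spots were 0.28, 0.75 and 2.85, so T cell genes differed more there than in members. Neutrophil genes were at 168 against 235 CPM in members and 131 against 356 CPM in the lowest 50% sets. Of the members, 23 of 67 and 31 of 142 were also in the top 5% of their library for B cell genes. That top 5% began at 292 CPM of B cell genes in the KPC-shZEB1-labelled library and 64.3 CPM in the KPC-shV-labelled library. The members in it summed to 698 and 265 CPM of these genes, so the B cell-rich sets of the libraries are not alike. In the KPC-shZEB1-labelled library, lymphatic genes were at 284 CPM in those 23 and 584 CPM in the other 44, so they were lower in the B cell-rich spots there. In the KPC-shV-labelled library they were higher in such spots, at 208 CPM (178 to 243) in 31 members against 111 CPM (102 to 120) in the other 111. Without Pdpn the values were 79.8 and 348 CPM in the first library, and 51.1 (36.5 to 69.6) and 35.0 CPM (30.1 to 40.4) in the second, where the intervals overlapped. High endothelial venule genes were at 212 and 178 CPM in the KPC-shZEB1-labelled library, and at 125 and 31.4 CPM in the KPC-shV-labelled library. The 5 genes highest in the members labelled KPC-shZEB1 over those labelled KPC-shV were Ighg3, Igkv19-93, Igkv12-89, Gkn3 and Ighj4, of which 4 are immunoglobulin genes and Gkn3 is a gastrokine. Gkn3 was at 350 against 3.63 CPM, with up to 7815 CPM in 1 spot. The 5 lowest included Lama3, Acsbg1, Srd5a1 and Hmga2, with Lama3, an epithelial laminin chain, at 21.9 against 266 CPM.

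Fibroblast genes divided. Col1a1, a collagen of all fibroblasts, was at 7322 and 6547 CPM in the members labelled KPC-shZEB1 and KPC-shV. Dcn, the small proteoglycan decorin, was at 1401 and 227 CPM, and Pi16, a marker of adventitial fibroblasts around vessels, at 204 and 29.0 CPM with a UMI in 52 of 67 and 70 of 142 members. In the lowest 50% sets Dcn was at 42.5 and 34.7 CPM and Pi16 at 4.71 and 3.80 CPM.

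The ratios over the lowest 50% differed most between the libraries for 8 genes in each direction. Igkv19-93, Gkn3, Iglc3, Ighg3, Clec3b, Igkv12-89, Ppy and Igkv8-27 had the larger ratio in the KPC-shZEB1-labelled library, and Muc13, Krt20, Cxcl9, Cxcl10, Ccl17, Esm1, Cdh17 and Lgals4 in the KPC-shV-labelled library. Clec3b, the stromal protein tetranectin, was at 163 against 2.89 CPM in the first and 3.30 against 2.06 CPM in the second. The interferon-induced chemokine Cxcl9 was lower in members than in the lowest 50% in the KPC-shZEB1-labelled library, at 232 against 1089 CPM, and higher in the KPC-shV-labelled library, at 525 against 231 CPM. Cxcl10 had the same pattern, with log2 ratios of -1.72 and 1.29. Esm1 was the only gene among the 16 that was in a vascular gene list here, with ratios of 1.49 (0.90 to 2.04) and 4.23 (4.04 to 4.43).

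The members were not one uniform set. Ranked by the other endothelial genes instead, the top 5% held 52 of the 67 members labelled KPC-shZEB1 (77.6%) and 101 of the 142 labelled KPC-shV (71.1%). The top 5% by lymphatic genes held 46.3% and 14.1% of the members, by pericyte genes 43.3% and 40.1%, by basement membrane genes 44.8% and 54.2%, by tip cell genes 17.9% and 42.3%, and by high endothelial venule genes 40.3% and 28.2%. No member was in the top 5% by epithelial or hypoxia genes. Within the members, fibroblast and epithelial genes had a rank correlation of -0.72 over the 142 spots labelled KPC-shV and -0.07 over the 67 labelled KPC-shZEB1. Lymphatic genes went with fibroblast genes at 0.61 and 0.36, but Pdpn belongs to both kinds of cell, and without it the coefficients were -0.09 and 0.11. Capillary genes went with lymphatic genes at -0.01 and -0.44. These coefficients are across spots of 1 section each, and epithelial genes also moved with depth, at 0.64 and 0.34.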

How the data were processed

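Spatial transcriptomes were read from 1 library per group, KPC-shZEB1 and KPC-shV by their labels. Frozen tissue was fixed in methanol and stained before probes were transferred by Visium CytAssist. The submitters' processing notes name Space Ranger 2.0.1 and the mm10 genome. The matrices that the authors deposited hold UMI counts of 19465 features in each spot over tissue, not normalized. The libraries held 140493626 and 172059528 UMIs. Neither the images nor the positions of spots entered. Acinar exclusion removed 858 and 305 spots and the UMI minimum 13 and 390.

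The level of a gene or list was its UMIs summed over a set of spots per 1000000 UMIs of those spots. Sets were compared by log2 ratios with exact conditional binomial intervals, levels by exact Poisson intervals and shares by Clopper-Pearson intervals, all at the 95% level and for counting error only, since there was 1 library per group and no test. PCR copies are removed by the UMIs. Shares of spots were also taken after thinning each spot to 10000 UMIs. The planned 2-fold count used genes with at least 20 CPM in either set. Because genes low in one set pass such a filter only through the other, a count of every list member with a UMI in both sets was added after seeing the data and is the one given for most lists. Probes to different genes differ in yield, so the level of each gene was compared only between sets of spots. Shares of a list's UMIs by gene describe the counts only. Computations in Python 3.11.15 (pandas 2.3.3, numpy 2.4.6, scipy 1.17.1, matplotlib 3.10.9) were tested on simulated data. Gene positions came from GENCODE M21 for 19451 of 19465 features.

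The members and lists were chosen with earlier results of these data known. Besides list genes and Zeb1, the genes named are the 15 highest and 10 lowest in members of both libraries (by the value nearer to 0), the 5 highest and 5 lowest between the members of the libraries and the 8 with the largest difference of the libraries' ratios in each direction. One gene that this rule names is not reported here. Of the list genes, Hba-a1, Krt18, Ldha and Ccnb1 were not analyzed because no feature bore the symbol. The promoters of Pecam1, Cdh5 and Vwf were not analyzed here. The alternatives changed the share of spots taken, the minimum of UMIs, the acinar limit, the marker set, the comparison spots, the scaling and the gene filter. Spots of 20000 to 50000 UMIs, one minimum of 400 CPM, spots with at least 1000 CPM of epithelial genes reading each rule gene in spots chosen by the other 3 and the lymphatic list without Pdpn were added after seeing the data. No doublet caller was run and no cell type makeup was estimated, because a spot is a region.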

Additional observations from a re-analysis of the deposited data

Results flagged for a closer look

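The 5 VEGF ligands summed higher in vessel-gene-rich spots than in the lowest 50% in the KPC-shZEB1-labelled library (log2 ratio 0.81) and lower in the KPC-shV-labelled library (-0.86), a difference of 1.68. Vegfa was lower in the members of both, and Vegfd was higher in the members of both. The neutrophil genes stood at 0.36 and -0.60, a difference of 0.957, with G0s2 at 2.33 and -0.83 and S100a9 at 0.05 and -0.90. Both differences stand out because the libraries lay on opposite sides of 0. Adipocyte genes also lay on opposite sides, at 2.21 and -0.31, but the interval of the second value (-0.88 to 0.21) held 0. Neither difference was tested.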

How the results depend on the processing

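For the other endothelial genes over the lowest 50%, the reported log2 ratios were 2.89 in the KPC-shZEB1-labelled library and 3.18 in the KPC-shV-labelled library, and every alternative kept both above 2. They were 3.17 and 3.44 with the top 2.5% of spots, 2.49 and 2.88 with the top 10%, 2.41 and 2.66 with spots chosen after thinning to 10000 UMIs, 2.75 and 3.04 with separate UMIs for choosing and reading, 2.23 and 2.25 against all other eligible spots, 2.99 and 3.25 with median-of-ratios scaling, 2.68 and 3.13 without spots rich in B cell genes and 2.80 and 3.10 without the 5% of members with the highest level. In the KPC-shZEB1-labelled library alone they moved to 2.75 under 0.5% acinar UMIs, 2.83 without Vwf, 2.97 as the mean over spots and 3.01 with acinar and immunoglobulin genes out of the total, and in the KPC-shV-labelled library to 3.15 with at least 20000 UMIs. Alternatives added after seeing the data gave 3.45 and 3.37 with 20000 to 50000 UMIs, 3.005 for KPC-shZEB1 with one minimum of 400 CPM, and 2.24 and 3.12 among spots with at least 1000 CPM of epithelial genes.

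Between the libraries the reported value of -0.10 moved to -0.20 with the top 10%, -0.26 under 0.5% acinar UMIs, -0.27 without spots rich in B cell genes and -0.75 among spots with at least 1000 CPM of epithelial genes, and to 0.0198 with acinar and immunoglobulin genes out of the total, 0.0287 with median-of-ratios scaling, 0.0346 with one minimum of 400 CPM and 0.22 with 20000 to 50000 UMIs. Its sign was therefore not stable, and the cause was not tested. The lymphatic list was 2.89 without Pdpn, an alternative added after seeing the data, and otherwise stayed between 1.12 and 2.15, Prox1 between 3.42 and 4.71, Esm1 between -2.95 and -2.26, the tip cell list between -1.05 and -0.51 and the basement membrane list between -1.02 and -0.77 over 16 alternatives. The count of 789 genes at least 2-fold higher in both was 2171 with 1 UMI per set of spots as the only filter and 421 at 50 CPM, where fewer genes were tested (18626 and 4876), and 549 to 855 under the others. Counts within lists are given in the text by both filters for the other endothelial genes. With 20 CPM as the filter, angiopoietin and Tie genes at least 2-fold higher were 4 of 4 and 3 of 3. Pericyte genes were 6 of 6 and 6 of 8, against 14.3% and 12.6% of all genes for both lists. Between the libraries, lymphatic genes higher were 5 of 5, against 4.48% of all genes, and Notch genes lower 4 of 7, against 6.06%. A gene can pass this filter only through the set where it is high, so these counts support nothing.

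Signs turned for a few values. Between the libraries Muc13 became 0.11 with the top 10%, 0.0981 without spots rich in B cell genes and 0.66 with 20000 to 50000 UMIs, and Muc4 became 0.0012 after thinning, 0.0645 under 0.5% acinar UMIs and 0.33 without spots rich in B cell genes. Among spots chosen for at least 1000 CPM of epithelial genes, which fixes part of the result, Muc13 was 1.24, Muc4 1.11, Muc20 0.78, Car9 0.71, Cdh1 0.48, Krt19 0.35, Cdh17 0.29, Epcam 0.13 and Cxcl9 0.0238. Over the lowest 50%, adipocyte genes labelled KPC-shZEB1 became -0.45 under 0.5% acinar UMIs and -0.88 with 20000 to 50000 UMIs, Iglc3 labelled KPC-shV became -0.36 without spots rich in B cell genes and -0.86 with 20000 to 50000 UMIs, and islet genes labelled KPC-shV became -0.33 without the 5% highest spots. No paired analysis was possible because each group is 1 library.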
